A study of Mus musculus with 12 samples.

Results

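The insulin and insulin-like growth factor (IGF) pathway was represented by 10 genes, chosen by their gene symbols: the ligand Igf1, the receptors Igf1r and Insr, the receptor substrates Irs1 and Irs2, the binding proteins Igfbp1, Igfbp2, Igfbp3 and Igfbp4, and Igfals, which encodes the acid-labile subunit. All 10 were found among the 30743 rows of the deposited table. Insulin and the IGFs bind receptor tyrosine kinases, which phosphorylate substrate proteins that in turn recruit PI3 kinase and activate AKT. AKT keeps FOXO transcription factors out of the nucleus and stimulates growth through mTOR. In blood the IGFs are carried by binding proteins, which the liver secretes in large amounts, and IGF2 and IGF1 are the chief growth factors of the fetus.

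The data are RNA-seq of whole livers from male C57BL/6J fetuses at 15 ± 0.5 days post coitum (dpc). Dams of 6 fetuses ate a control diet with 13.5 kcal% fat, and dams of the other 6 fetuses ate a high-fat diet (HFD) with 60 kcal% fat, each for 12 to 14 weeks. The labels do not say which fetuses were littermates. Whole liver at this age mixes hepatoblasts with blood-forming cells, so a level here is that of the mixture. For each gene, the authors' average level over all 12 livers was used. It is given below as CPM, the reads of a gene scaled to the same standard library total for all livers. It is 1 value for both diets together, so it has no SD, no n of its own and no comparison of HFD with control livers, and differences between genes could not be set against the spread between livers.

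Of the 30743 rows, 11091 shared the lowest value, 0.152 CPM, which is what a gene without reads receives after the small prior count that edgeR adds, and 19652 had reads. With a prior count of 2, the lowest value corresponds to a mean library of 13129748 normalized reads. The depth of each liver is unknown. Of 6 hepatoblast and hepatocyte markers 4 were above 32 CPM, among them albumin (Alb) at 63314 CPM, alpha-fetoprotein (Afp) at 54525 CPM and Apoa1 at 5096 CPM, whereas Serpina1a was at 0.184 CPM and Hnf4a was listed without reads. Among erythroid markers, Klf1 was at 692 CPM, Gata1 at 367 CPM and Alas2 at 0.704 CPM, whereas Hba-a1 and Hbb-bt had no row under these symbols. Of 8 pancreas markers, 2 were above 1 CPM, the highest being Cela1 at 13.7 CPM.

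A low value in this table cannot be read as a silent gene. Of 14 genes that every cell uses, chosen after their values were seen, 12 were above 1 CPM. Among these 12, Eef1a1 was at 5951 CPM and Actb at 2581 CPM, but Gapdh was at 5.2 CPM and Ywhaz at 4.7 CPM. Ppia was at 0.165 CPM and Tbp at 0.638 CPM, and each has 1 curated RefSeq transcript. Levels also moved with the structure of the gene. Among protein-coding genes with 1 curated RefSeq transcript, 22.8% of 11286 were above 32 CPM, compared with 10.7% of 3610 genes with 2 transcripts and 6.84% of 3467 genes with 3 or more. The share listed without reads ran the other way, at 24.4%, 19.2% and 17.9%. In the GENCODE annotation, genes of which 0 to 5% of the exonic bases lie in a single transcript were listed without reads in 60.6% of 858 cases, compared with 9.65% of 1782 genes for which that share was 80 to 100%. Genes with a share of exactly 100% broke this order, with 31.2% of 3121 listed without reads. The part of transcript structure in the values of single genes was not tested.

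**Figure D1:**
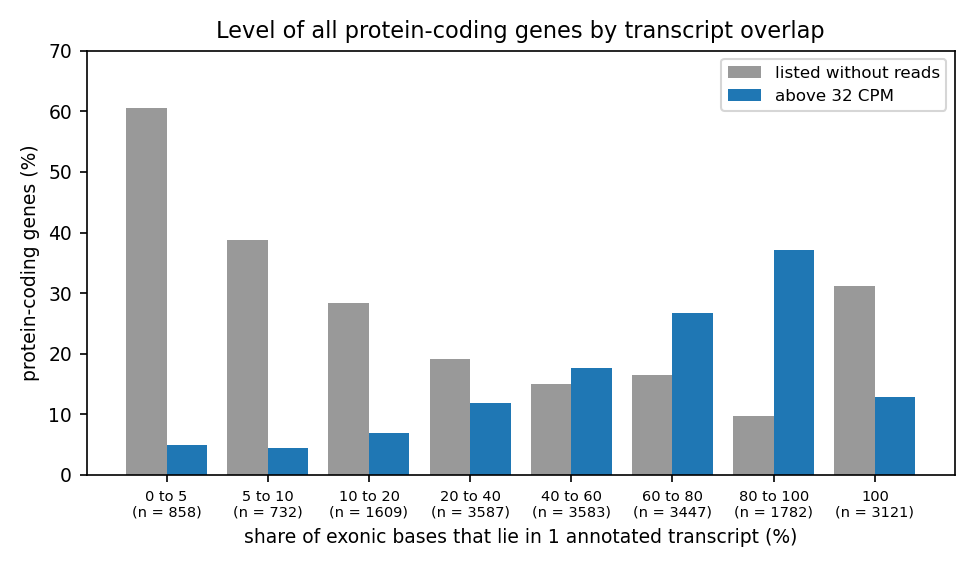
Protein-coding genes grouped by the share of their exonic bases that lie in 1 annotated transcript (x axis, %), with the percentage of genes (y axis) listed without reads (grey bars) and above 32 CPM (blue bars). The grey bar falls from 60.6% in the first group to 9.65% in the group of 80 to 100%, where the blue bar is at 37.1%, and genes at exactly 100% stand apart with 31.2% and 12.8%.

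The insulin response motif, searched on both strands as CAAAACA and TGTTTTG, holds the core that FOXO proteins bind when insulin is low, and the Igfbp1 promoter is the textbook example. In RefSeq promoters on GRCm38.p6, taken as the 250 bases before each start, 9 of the 10 members were matched with 12 promoters. The motif was present in Igfbp1, Irs1 and Irs2, and in 5.56% of all 32851 promoters. The E-box CACGTG, a site for basic helix-loop-helix factors, was present in Igfbp2, Irs1 and Irs2, and in 6.02% of all promoters. The sequences of the 3 genes with the insulin response motif are given in full, on the strand of the gene, with the letters of both motifs in capitals. Igfbp1 lies on the plus strand (chr11:7197537-7197786), Irs1 on the minus strand (chr1:82291440-82291689) and Irs2 on the minus strand (chr8:11008930-11009179).
Igfbp1: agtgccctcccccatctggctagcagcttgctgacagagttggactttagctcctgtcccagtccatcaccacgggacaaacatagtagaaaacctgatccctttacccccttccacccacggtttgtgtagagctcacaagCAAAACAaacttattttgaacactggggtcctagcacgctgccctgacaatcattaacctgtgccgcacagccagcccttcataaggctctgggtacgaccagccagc
Irs1: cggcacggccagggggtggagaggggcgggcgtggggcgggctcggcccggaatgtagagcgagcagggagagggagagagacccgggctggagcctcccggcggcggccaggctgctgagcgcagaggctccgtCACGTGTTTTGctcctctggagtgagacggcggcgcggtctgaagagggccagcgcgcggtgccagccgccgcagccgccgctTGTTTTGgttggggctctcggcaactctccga
Irs2: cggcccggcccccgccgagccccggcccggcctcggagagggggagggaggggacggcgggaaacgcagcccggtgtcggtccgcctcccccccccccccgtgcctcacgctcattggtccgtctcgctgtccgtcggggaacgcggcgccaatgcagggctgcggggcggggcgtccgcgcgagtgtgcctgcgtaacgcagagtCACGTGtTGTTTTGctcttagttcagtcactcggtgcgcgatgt

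In Igfbp1 the motif began 108 bases before the start, in the CAAAACA orientation. In Irs2 it began 37 bases before the start, in the opposite orientation and 1 base downstream of the E-box, which began at 44 bases. Irs1 held the motif at 111 and at 32 bases before its start, and the first copy shared its leading letters with the E-box at 115 bases. Both motifs stood in the same promoter in Irs1 and Irs2 and in 0.295% of all promoters. These are matches of letters, not measured binding sites. The GC content was 72.4% in Irs1 and 72.8% in Irs2, compared with 53.2% in Igfbp1 and a median of 52.4% over all promoters. Among the other members it was 77.6% in Igf1r, 73.2% in Igfbp3, 69.2% in Igfbp4 and 52.8% in Igf1. The promoters of Igfbp2 were at 67.2% and 56.4%, and those of Igfals at 57.2%, 59.6% and 61.2%. Igfbp4 had a TATAAA motif 28 bases before its start, found in 12.4% of promoters on either strand.

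The binding proteins held the highest levels of the 10 genes. Igfbp4, whose product binds IGF1 and IGF2 and in most settings holds them away from the receptor, was at 645 CPM, the 161st highest row of the table. Igfbp1, a short-lived binding protein that hepatocytes make when insulin is low, was at 410 CPM and ranked 300th. Igfbp3, the principal carrier of IGFs in adult blood, followed at 122 CPM, above 93.3% of the rows with reads. Igfbp2, a binding protein of fetal serum, was at 10.4 CPM, above 72.2% of those rows. Thus 3 of the 4 binding proteins stood near the top of the expressed rows and Igfbp2 did not. Igfbp2 has 2 curated transcripts, whereas the other 3 each have 1. In GENCODE, 54.6% of the exonic bases of Igfbp2 lie in only 1 transcript.

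Igfbp1 and Igfbp3 are neighbours in the genome. Igfbp1 occupies chr11:7197782-7202546 on the plus strand and Igfbp3 chr11:7206086-7213923 on the minus strand of GRCm38, so that their 3' ends face each other across 3539 bases with 0 annotated genes between. Igfbp2 (chr1:72824503-72852474) and Igfbp5 form a second pair of this kind, 5457 bases apart, also with 0 genes between. Igfbp4 (chr11:99041244-99054392) is on the same chromosome as the first pair but far from it. Per kilobase of the longest coding transcript, Igfbp1 was 5.33 times as high as Igfbp3, and Igfbp2 was 2.41 times as high as Igfbp5.

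Igfals encodes the subunit that joins IGF and IGFBP3 in the long-lived complex of adult serum, and it is a liver gene induced by growth hormone. It was at 21.0 CPM, above 78.2% of the rows with reads. Igfals (chr17:24865997-24882010, plus strand) has 3 curated transcripts and 20.9% of its exonic bases in a single one, the lowest share of the 10 genes. Per kilobase, Igfbp1 was 33.6 times as high.

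Igf1, the ligand of the type 1 IGF receptor and the growth hormone-dependent IGF of the adult liver, was at 0.361 CPM, which corresponds to about 2.74 reads in an average liver. Its level lay above 32.4% of the rows with reads. With the value of a row without reads subtracted, Igf1 was at 0.209 CPM. Igf1 (chr10:87858265-87937042) is a long gene with 5 curated transcripts, and an antisense gene, Igf1os, overlaps it. The library kit did not mark the strand, so reads from the stretch that the 2 genes share cannot be told apart. Igf2, the other IGF and the one that dominates fetal growth, was at 371 CPM. Per kilobase of the longest coding transcript, Igf2 was at 78.6 CPM and Igf1 at 0.0512 CPM. With the median transcript length they were at 148 and 0.264 CPM. Igf2 also has 5 curated transcripts and overlaps Gm49394 and Mir483 on its own strand and Igf2os on the other, so its level may include reads of these genes.

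The 2 signalling receptors stood apart. Igf1r, which carries the growth signal of both IGFs, was at 6.66 CPM, about 85.5 reads per liver and above 68.1% of the rows with reads, and Insr, the insulin receptor, was at 0.267 CPM, about 1.5 reads. Insr was the lowest of the 10 genes, above 26.6% of rows with reads, and was at 0.115 CPM with the value of a row without reads subtracted. Igf1r (chr7:67952827-68233668) has 1 curated transcript, and its coding transcript in GENCODE spans 11409 bases. Insr (chr8:3122061-3279617) has 2 curated transcripts and is overlapped on the other strand by Vmn2r-ps88 and Gm16180. In GENCODE, 81.6% of the exonic bases of Insr lie in only 1 transcript. Per kilobase of the longest coding transcript, Igf1r was at 0.584 CPM and Insr at 0.0285 CPM. Igf2r, the receptor that removes IGF2 by carrying it to lysosomes, was at 569 CPM and per kilobase 110 times as high as Igf1r. Insrr, the insulin receptor-related receptor, was at 0.235 CPM. At about 1.5 reads in an average liver, the table cannot place the level of Insr relative to Igf1.

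In CPM, both receptor substrates were above Igf1r and Insr, and above Igfbp2 but below the other 3 binding proteins. Per kilobase of the longest coding transcript, Irs1 (3.81) was below Igfbp2 (7.99). Irs2, the substrate that carries much of the insulin signal in liver, was at 65.4 CPM, and Irs1, its widely expressed relative, was at 34.9 CPM. They lay above 88.1% and 82.6% of the rows with reads. Per kilobase, Irs2 was 2.7 times as high as Irs1. Irs1 (chr1:82233101-82291416) and Irs2 (chr8:10984681-11008458) are both on the minus strand, and all exonic bases of each lie in a single transcript. Gm9747 overlaps Irs1 on the opposite strand, and 9530052E02Rik, itself at 0.247 CPM, overlaps Irs2.

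**Figure D2:**
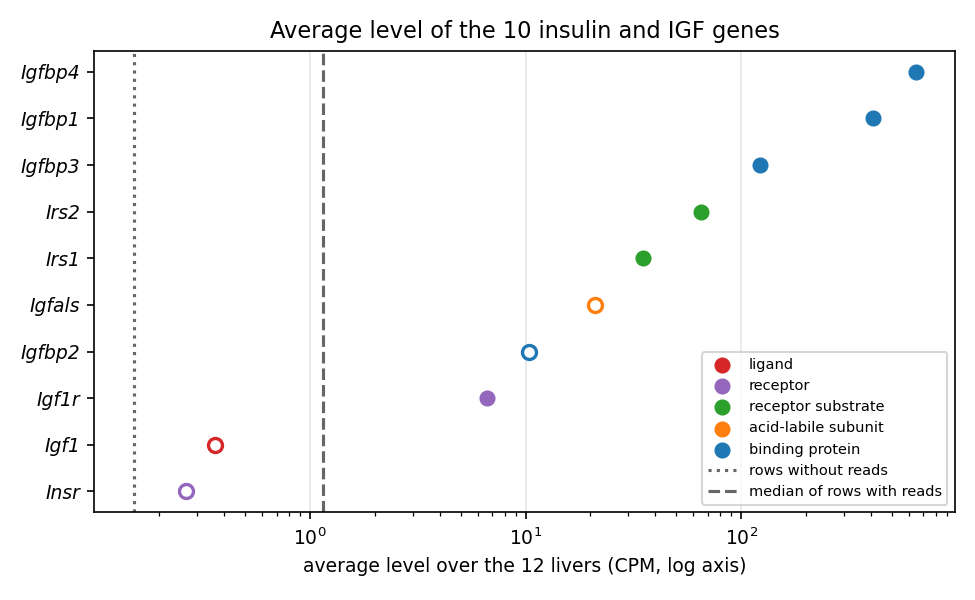
Average level over the 12 livers (x axis, CPM on a log axis) of the 10 genes (y axis), coloured by role. Filled points are genes with 1 curated RefSeq transcript and open points genes with 2 or more; the dotted line marks rows without reads (0.152 CPM) and the dashed line the median of rows with reads (1.15 CPM). Binding proteins hold the first 3 places, and Igf1 at 0.361 CPM and Insr at 0.267 CPM lie left of the median.

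As a group, 8 of the 10 genes were above 1 CPM and 5 were above 32 CPM, compared with 33.1% and 11.6% of all rows of the table. All 10 are protein-coding, whereas many rows are not. Of protein-coding genes with 1, 2 and 3 or more curated transcripts, 48.5%, 42.7% and 38.3% were above 1 CPM. Above 32 CPM the shares were 22.8%, 10.7% and 6.84%. The median of the 10 genes was 27.9 CPM, compared with 1.15 CPM over all rows with reads. The 6 genes with 1 curated transcript ranged from 6.66 to 645 CPM, and the 4 genes with 2 or more ranged from 0.267 to 21.0 CPM. The ranges overlapped only through Igf1r, which was below Igfals and Igfbp2. Thus the 4 genes with several transcripts were 4 of the 5 lowest, and in the whole table such genes also tended to be lower. Among these 4, Igfals and Igfbp2 had higher levels than Igf1 and Insr but a lower share of exonic bases in only 1 GENCODE transcript. That share was 20.9% in Igfals, 54.6% in Igfbp2, 74.9% in Igf1 and 81.6% in Insr. Igf1 and Insr have too few reads to be ordered by level. The part of transcript structure in these levels was not tested.

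Long transcripts collect more reads, so genes are best ordered per kilobase. In CPM per kilobase of the longest coding transcript the order was Igfbp1 (269), Igfbp4 (168), Igfbp3 (50.5), Irs2 (10.3), Igfals (8.01), Igfbp2 (7.99), Irs1 (3.81), Igf1r (0.584), Igf1 (0.0512) and Insr (0.0285). Igfals and Igfbp2 were side by side, and the other neighbours were further apart. The top place depended on the transcript. Igfbp4 has a longest transcript of 3831 bases and a median of 742 bases, with which it was at 869 CPM per kilobase, above Igfbp1. Igfbp1 has a single coding transcript of 1525 bases, and its value did not move. With the median length Igf1 was at 0.264 and Insr at 0.0532 CPM per kilobase, and both kept their places. The levels divided here still include the 0.152 CPM of a row without reads, a large part of both values. With so few reads, the order of Igf1 and Insr is not settled.

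**Figure D3:**
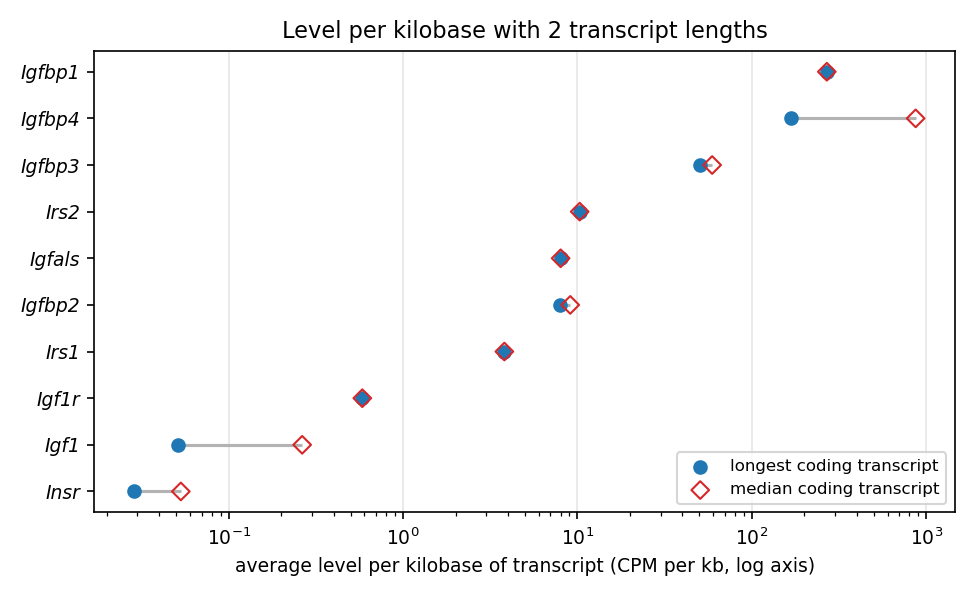
Average level per kilobase (x axis, CPM per kb on a log axis) of the 10 genes (y axis), with the length of the longest coding transcript (blue circles) or the median coding transcript (red diamonds). The order holds except that Igfbp4 passes Igfbp1, at 869 against 269, and Igfbp2 passes Igfals, at 9.09 against 8.01.

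The rest of the pathway was described with a list of 48 genes, all of which were in the table. Of these, 32 were above 1 CPM and 16 above 32 CPM, beside the same 33.1% and 11.6% of all rows. The shares of protein-coding genes given above apply here too. Listed without reads were 2 genes, Ins2 and Inpp5d. The median of the 48 genes was 3.29 CPM. The 27 listed genes with 1 curated transcript had a median of 15.6 CPM and the 21 with 2 or more had a median of 3.04 CPM, so a lower level with more transcripts was present here too.

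Upstream of the receptors, Ins1 was at 0.328 CPM. Of the other binding proteins, Igfbp5 was at 20 CPM, Igfbp6 at 2.28 CPM and Igfbp7 at 0.184 CPM. Pappa, a protease that cleaves IGFBP4 and so frees IGF, was at 0.159 CPM, close to the lowest value, and Pappa2, which cleaves IGFBP3 and IGFBP5, was at 1.14 CPM. Their inhibitors Stc1 and Stc2 were at 1.75 and 1.02 CPM. In the growth hormone axis, which drives Igf1 and Igfals after birth, the receptor Ghr was at 0.159 CPM, Jak2 at 3.54 CPM, Stat5b at 3.04 CPM and Stat5a at 0.509 CPM. All 4 of these genes have 2 or more curated transcripts.

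Among the adaptors, Grb10, an imprinted inhibitor of the insulin and IGF1 receptors, was the highest at 53.8 CPM, followed by Sos1 at 37.3 CPM. Grb14, a related inhibitor, was at 15.6 CPM and Shc1 at 15.3 CPM, and Grb2 was at 4.53 CPM. Per kilobase of the longest coding transcript, Grb10 (10.6) stayed first, but Sos1 (4.42) was below Grb14 (7.87) and Shc1 (4.7). Irs3 and Irs4, the other substrates of the family, were at 0.216 and 0.203 CPM. Irs1 and Irs2 were thus the only substrates of the 4 above 1 CPM. The PI3 kinase subunits followed, with the catalytic Pik3ca at 127 CPM and Pik3cb at 1.75 CPM, and the regulatory Pik3r2 at 63.2 CPM and Pik3r1 at 19.6 CPM.

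Of the kinases downstream, Akt2 was at 4.55 CPM and Akt1 at 0.47 CPM. Akt1 has 3 curated transcripts and Akt2 has 4. Their upstream kinase Pdpk1 was at 0.589 CPM with 3 transcripts. The phosphatase Ptpn1, which dephosphorylates the insulin receptor, was at 0.545 CPM. The AKT targets Gsk3a and Gsk3b were at 157 and 128 CPM. In the TOR branch, Mtor was at 128 CPM, Rheb at 122 CPM, Rps6kb1 at 107 CPM and Eif4ebp1 at 89.7 CPM. Rictor was at 2.32 CPM, Tsc2 at 0.596 CPM, Tsc1 at 0.426 CPM and Rptor at 0.305 CPM. In these values Mtor, Rheb, Rps6kb1 and Eif4ebp1 were high, and Rictor, Tsc2, Tsc1 and Rptor were low. Such low values cannot be read as silent genes. Tsc1, Tsc2 and Rptor have 2 or more curated transcripts and Rictor has 1. The level did not follow this number in every gene, since Rps6kb1 has 3 transcripts and Gsk3b 2, whereas the low Ptpn1 has 1.

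The listed FOXO factors were all above 1 CPM, with Foxo4 at 132 CPM, Foxo1 at 44.8 CPM and Foxo3 at 3.78 CPM. The Igf2 mRNA-binding proteins, which are characteristic of fetal tissue, were at 136 CPM for Igf2bp3, 121 CPM for Igf2bp1 and 2.95 CPM for Igf2bp2, all with 1 curated transcript. Per kilobase, Igf2bp3 was 41.5 times as high as Igf2bp2. In GENCODE, however, 51.2% of the exonic bases of Igf2bp2 lie in only 1 transcript, compared with 78.4% for Igf2bp3 and 89.0% for Igf2bp1. The part of transcript structure in this ratio was not tested.

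**Figure D4:**
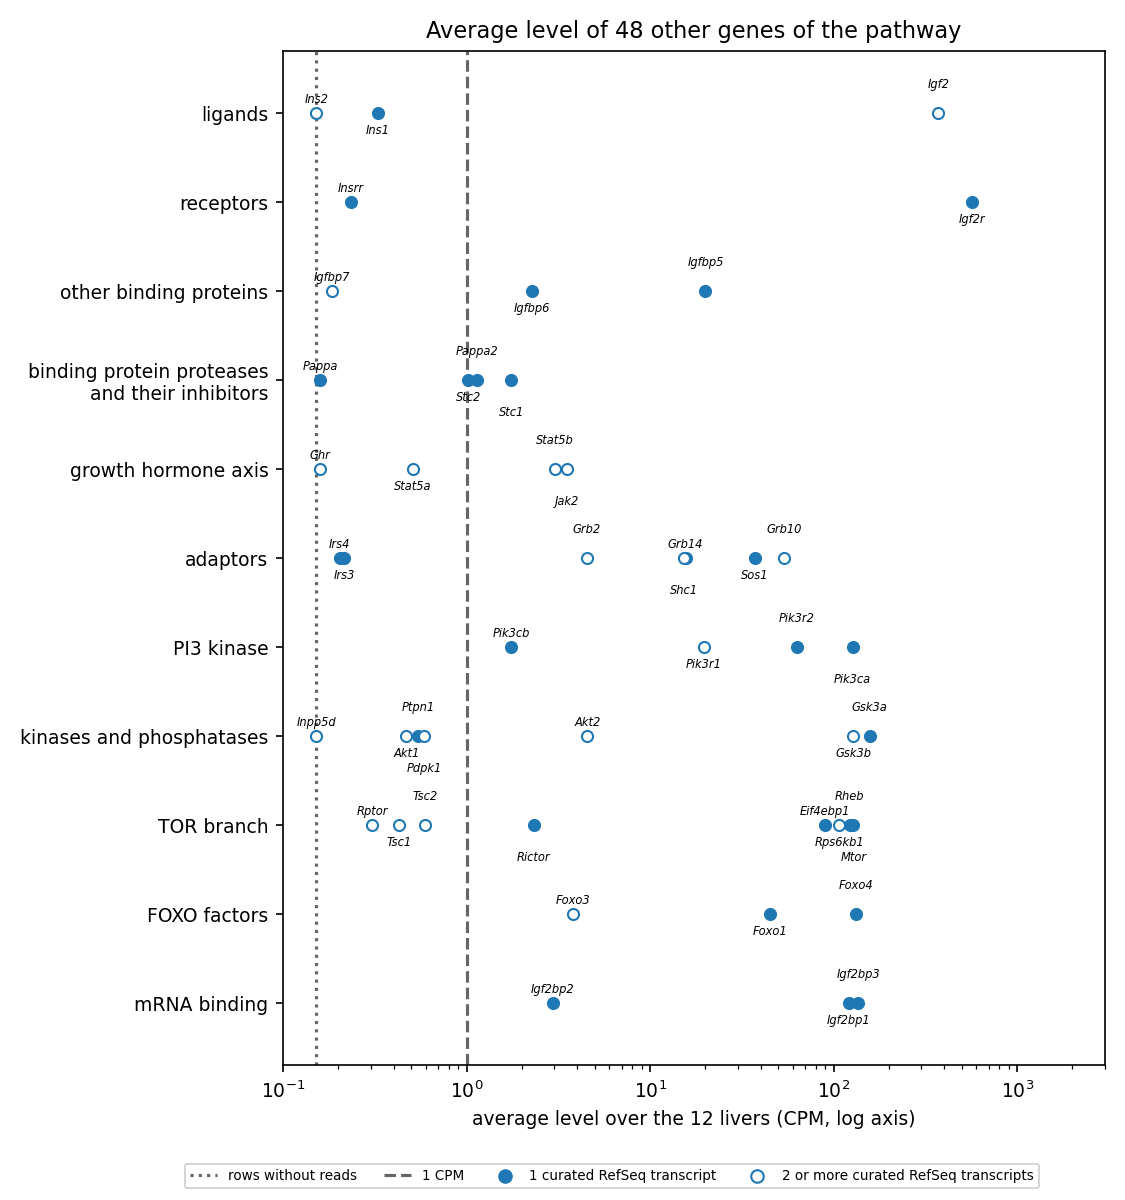
Average level over the 12 livers (x axis, CPM on a log axis) of the 48 other genes of the pathway, in rows by role (y axis). Filled points have 1 curated RefSeq transcript and open points 2 or more; the dotted line marks rows without reads and the dashed line 1 CPM. Igf2r at 569 CPM and Igf2 at 371 CPM are the highest, and most points left of 1 CPM in the kinase and TOR rows are open.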

How the data were processed

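Whole livers of 6 control and 6 HFD fetuses were sequenced as polyA-selected RNA. Per the submitters' processing notes, the authors used cutadapt 1.2.1, Subread 1.3.6-p1, edgeR and mm10 (GRCm38). Annotation used biomaRt per the paper's methods, and the tool that counted reads per gene is not given in the sources used here. The deposited table holds the authors' average log2 CPM over all livers, which was converted to CPM. Another 8 columns hold the authors' own comparison of the diets (log2 fold changes, signed fold changes, p-values and adjusted p-values under 2 dispersions) and were not used. With 0 columns of single livers, the planned count test was not run, and no replicate error or counting interval is given.

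Reads per liver were estimated from the value of rows without reads, assuming a prior count of 2 in the authors' edgeR average. On data simulated with the same prior count, the median error was 0.33% over 1178 genes, with genes of few reads left out. The simulation therefore does not check the assumed prior count. It also does not cover estimates as low as those of Igf1 (2.74 reads) and Insr (1.5 reads). Lengths and positions are from GENCODE M21, curated transcript counts and promoters from RefSeq GRCm38.p6. Every member and each of the 48 pathway genes is named, and 2 further genes of the planned pathway list are not reported here. Members and lists were chosen with earlier results of these data known. Python 3.11.15, pandas 2.3.3, numpy 2.4.6 and matplotlib 3.10.9 were used.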

Additional observations from a re-analysis of the deposited data

How the results depend on the processing

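The median level of the 10 genes was 27.9 CPM as deposited and 27.8 CPM after the value of rows without reads was subtracted, which lowered Igf1 to 0.209 CPM and Insr to 0.115 CPM. The order per kilobase differed at 5 places with no division by length and at 4 places with the median transcript length. The median percentile of the genes was 80.4 among rows with reads, 62.2 among rows above 1 CPM and 87.5 among all rows. For the 6 genes with 1 curated transcript it was 90.7 among rows with reads and 84.0 among coding genes with reads and 1 curated transcript, an alternative chosen after seeing the data. The count above the threshold was 8 at 1 CPM, 8 at 0.5 CPM and 7 at 10 CPM. No paired analysis was possible because the table used here holds no value for a single liver and the labels give the diets no shared replicate numbers. For the same reason the edgeR and DESeq2 fits, the filter on low counts and the leaving out of livers were not run. The other deposited average column was not read.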

Other observations

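Markers of tissues outside the liver were read beside the pathway genes. The placental genes Prl3d1 and Tpbpa were listed without reads, whereas the muscle genes Acta1 and Ckm were at 55.0 and 10.3 CPM. Among pancreas genes, Cela1 was at 13.7 CPM and Cpa1 at 8.04 CPM, while Ptf1a, Gcg, Iapp and Pnlip were at 0.165 to 0.248 CPM. The 3 cholangiocyte markers Krt19, Epcam and Sox9 were at 6.08, 5.65 and 2.96 CPM.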
